A study of Gallus gallus with 18 samples.

Results

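Among the 18336 genes of the chicken retinal pigment epithelium (RPE) RNA-seq table, 129 had a higher mRNA level in E5 RPE treated with FGF2 after retinectomy than in E5 RPE after retinectomy alone, with no such difference at E4. The members were chosen by a rule on group means of normalized counts, with L = log2(group mean + 0.5). L had to be higher by 1 or more in 6hPR + FGF2 than in 6hPR at E5 (called the E5 step here), to differ by 0.5 or less between 6hPR and developing RPE at E5, and to be higher by no more than 0.3 in 6hPR + FGF2 than in 6hPR at E4 (the E4 step). The largest of the 6 group means had to be 100 or more, and integrin genes were left out, which removed *ITGAV*. Of the 129 members, 103 carry a gene symbol and 26 do not. Since the rule reads these differences from the same libraries, they are given below as a description with no test. The only comparisons tested are ones that the rule did not use, although each shares a group of libraries with it.

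The RPE is the pigmented cell layer behind the neural retina. In the chick embryo it can be turned into neural retina by fibroblast growth factor 2 (FGF2) once the retina has been removed, an ability that is lost as the layer matures. FGF2 binds receptor tyrosine kinases and acts through the RAS, RAF and ERK kinase cascade and through phospholipase C, diacylglycerol, calcium and protein kinase C, and its usual early target genes are the Sprouty, DUSP and ETV families. Genes of innate immune signalling answer to other inputs, chiefly the NF-κB transcription factors and the sensors of foreign RNA that lead to interferon.

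Bulk mRNA-seq of RPE at embryonic day 4 (E4, Hamburger Hamilton stage 24) and day 5 (E5, stage 26) covered 3 conditions at each stage. Developing RPE came from embryos with no surgery, 6hPR RPE was taken 6 h after surgical removal of the neural retina, and 6hPR + FGF2 RPE was taken 6 h after the same surgery with heparin beads carrying FGF2 placed in the eye cup. Each of the 6 groups has 3 libraries (replicates 1 to 3), each a pool of 3 RPE sheets, and values that follow each other for a group are in replicate order. No group received beads without FGF2, so the bead and the factor cannot be told apart, and in bulk tissue fewer cells of a type and less RNA per cell cannot be told apart. The embryos were from White Leghorn eggs by the labels, whereas the methods of the study name SPAFAS pathogen-free eggs for the RNA-seq. Values are normalized counts, reads per gene divided by a size factor of the library, and they are not corrected for gene length. E5 6hPR + FGF2 libraries are also called the treated E5 libraries.

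Reads assigned to genes ran from 50.7 to 73.0 M per library. Replicate 3 of E4 6hPR + FGF2 held 60.4 counts of *HINTW*, a transcript of the female-specific chromosome W, and replicate 3 of E5 6hPR held 0. All other 16 libraries held 20330 or more, and when the rule was run without this pair of libraries it chose 101 genes, 83 of them among the 129. A member without a symbol, ENSGALG00000043838, was at 0 in the same pair and at 22.6 to 122 in the other 16 libraries. Its E5 6hPR values were 57.5, 66.2 and 0, and its E5 6hPR + FGF2 values were 92.7, 122 and 118. With that 0 left out of the E5 6hPR mean, its E5 step of 1.42 would fall below the bound of 1. RPE markers were high in every library: the summed level of 11 of them ran from 453829.9 to 1561165. No marker of RPE, neural retina, photoreceptors, periocular mesenchyme, endothelium, pericytes, erythrocytes, leukocytes, lens or liver was a member. The members differed most among the E5 developing libraries, where the median over members of the SD of log2 values was 0.58, against 0.25 for the 12839 genes with a group mean of 100 or more, and least in E5 6hPR + FGF2 (0.14 against 0.091).

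The E5 step had a median of 1.21 on the log2 scale over the members, with 10 members at 2 or more and 33 at 1.5 or more. A step of 1 or more was found for 9.87% of the genes in the table. In 125 members the lowest E5 6hPR + FGF2 library lay above the highest E5 6hPR library, as it did in 24.9% of all genes, and in 103 members it lay above each of the other 15 libraries, against 7.86% of all genes. *SERPINB10B*, *ZIC1* and 2 genes without a symbol overlapped E5 6hPR. The other differences were near 0, as the rule requires: the median was −0.13 for E5 6hPR minus E5 developing and −0.08 for the E4 step, which was below 0 in 72 members and below −0.3 in 37. Levels in E5 6hPR + FGF2 ran from 107 to 16084 normalized counts with a median of 726, and 123 members had their highest group mean there. The exceptions were *KIF26B*, *LOXL2*, *NTN1*, *ZIC1*, *UTP20* and a gene without a symbol.

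**Figure D1:**
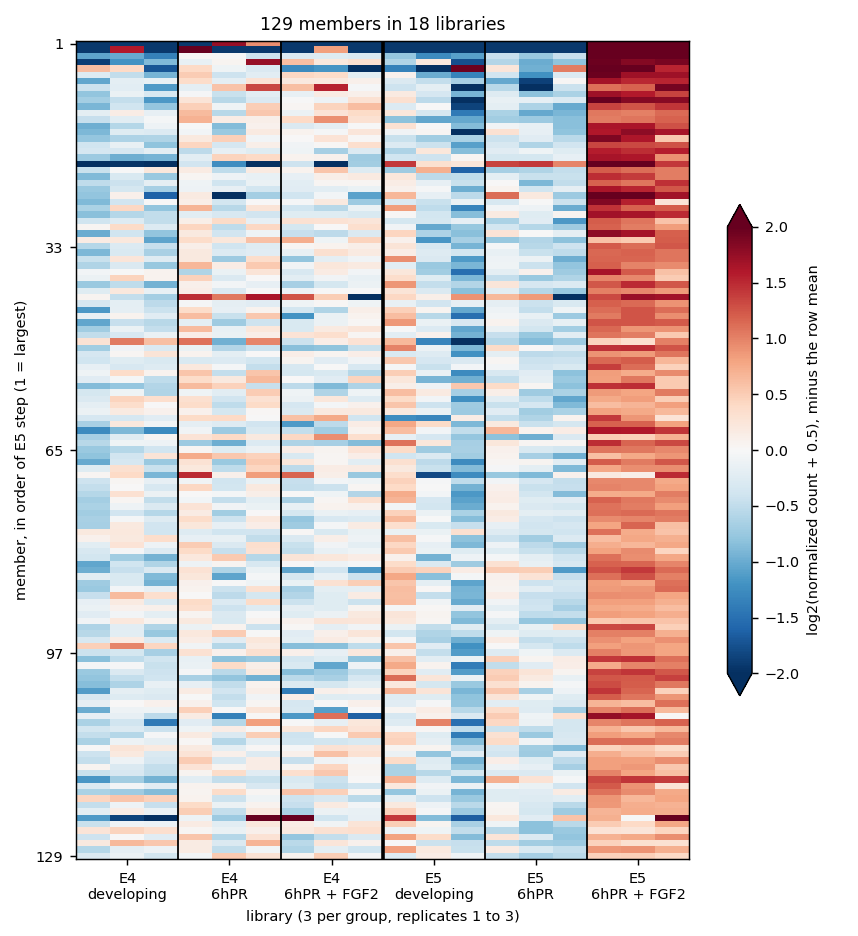
Heat map of the 129 members (rows, in order of the E5 step) in the 18 libraries (columns, 3 per group), with colour for log2(normalized count + 0.5) minus the row mean. The 3 E5 6hPR + FGF2 libraries on the right are high in nearly every row, and E5 developing replicate 3 is the lowest of its group in 99 rows.

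The same genes at E4 showed smaller differences. In E4 6hPR + FGF2 their median was 0.22 above E4 developing RPE on the log2 scale, with 85 members above 0, and in E5 6hPR + FGF2 it was 1.20 above E5 developing RPE, with all 129 above 0. Between the FGF2-treated groups, E5 was above E4 in 128 members (median 1.14), and between the 6hPR groups it was below E4 in 99 (median −0.33). These differences share libraries with the rule and were not tested.

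**Figure D2:**
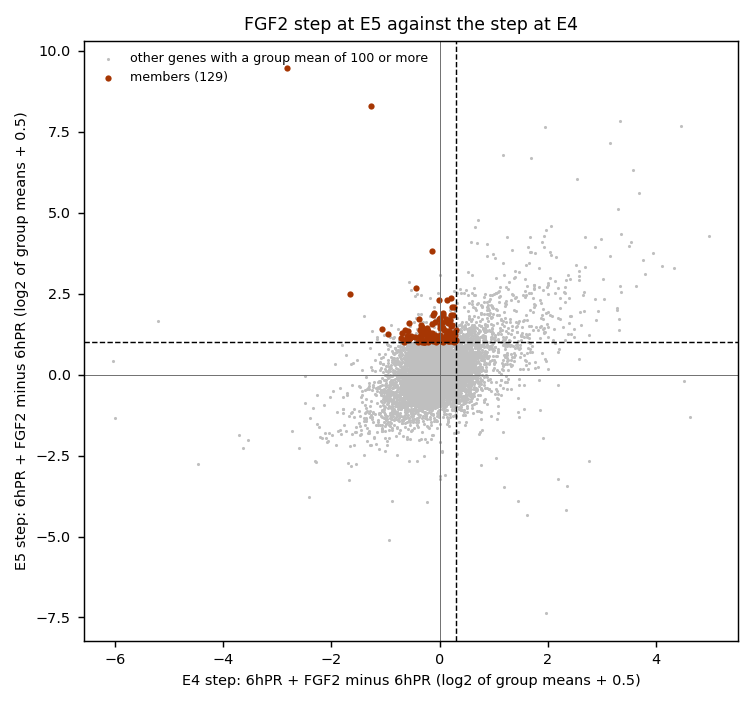
Scatter of the E5 step (y, log2) against the E4 step (x, log2) for the 12839 genes with a group mean of 100 or more, with the 129 members in dark red and the bounds of the rule at 1 and 0.3 as dashed lines. Grey genes that share the upper left region with the members failed the bound on E5 6hPR against developing RPE, or are the integrin left out, and the 2 members with the largest steps lie far above the rest.

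Genes close to the bounds differed little across them. At the E5 step, *CNP* (1.0008), *IQSEC1* (1.0055) and a gene without a symbol (1.0084) lay just inside and *ARHGEF10* (0.9997) and 2 genes without a symbol (0.9957 and 0.9944) just outside. At the E4 step, *PTBP3* (0.2973), *PAG1* (0.2937) and *LOXL2* (0.2922) were inside and *ICOSLG* (0.3065), *ITPRIP* (0.3111) and *WWTR1* (0.3223) outside. For the absolute difference of E5 6hPR from developing RPE the values were 0.4971 for *CNP*, 0.4963 for *LY75* and 0.4962 for *GRPEL2* inside, and 0.5017 for a gene without a symbol, 0.5035 for *LPP* and 0.5088 for *MDN1* outside. The lowest largest means kept were 107 for *ADCY7*, 111 and 117 for genes without a symbol, and the highest left out were 95.0, 84.9 and 77.0, all without a symbol.

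The members moved together within groups, opposite to the mRNAs of ribosomal proteins. With each gene centred on its mean over the libraries, the median of the 129 members and the median of 65 ribosomal protein genes, both taken as deviations from their group means, had a Pearson r of −0.928 over the 18 libraries, and the members against 40 *NDUF* genes (subunits and assembly factors of mitochondrial complex I) had −0.943. These are descriptions over libraries that share their scaling. The ribosomal protein median also differed between the groups that the rule compares: it was 0.19 ± 0.20 (SD, n = 3) in E5 6hPR and −0.29 ± 0.078 in the treated E5 libraries, against −0.02 ± 0.12, 0.04 ± 0.22, 0.08 ± 0.17 and 0.02 ± 0.31 in E4 developing, E4 6hPR, E4 6hPR + FGF2 and E5 developing. The slope of a gene on this median within groups was negative in 116 members, with a median of −1.25, against 0.02 for genes with a group mean of 100 or more. E5 developing replicates 1, 2 and 3, with ribosomal protein medians of −0.26, −0.03 and 0.35, had member medians of 0.22, −0.24 and −0.84. The treated E5 libraries, with ribosomal protein medians of −0.31, −0.36 and −0.21, had member medians of 1.10, 1.06 and 0.94. The part of this axis in the E5 step was not tested.

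When each gene was adjusted for the ribosomal protein median with that slope, a setting added after the data were seen, the median E5 step of the members fell from 1.24 (as a mean of log2 values) to 0.70. Over the genes with a group mean of 100 or more, the adjusted median step was −0.003. The members were chosen for a high step in these same libraries, so their counts are a description only. Of the 129, 126 stayed above 0, 37 stayed at 1 or more, and 30 still met the rule's 3 differences. The 26 of these 30 with a symbol include *KCNQ3*, *TP63*, *B3GNT7*, *SALL3*, *KCTD12*, *PCGF5*, *ZNFX1*, *CACNA1C*, *PLPPR5*, *DHX58*, *GRM7*, *HIVEP2*, *IL1R1*, *NFKBIE*, *NFKB2* and *JUN*. *KIF26B*, *MAP3K9* and a gene without a symbol were at or below 0 after it. Applied to the whole table, the adjusted rule chose 49 genes, 30 of them among the 129.

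**Figure D3:**
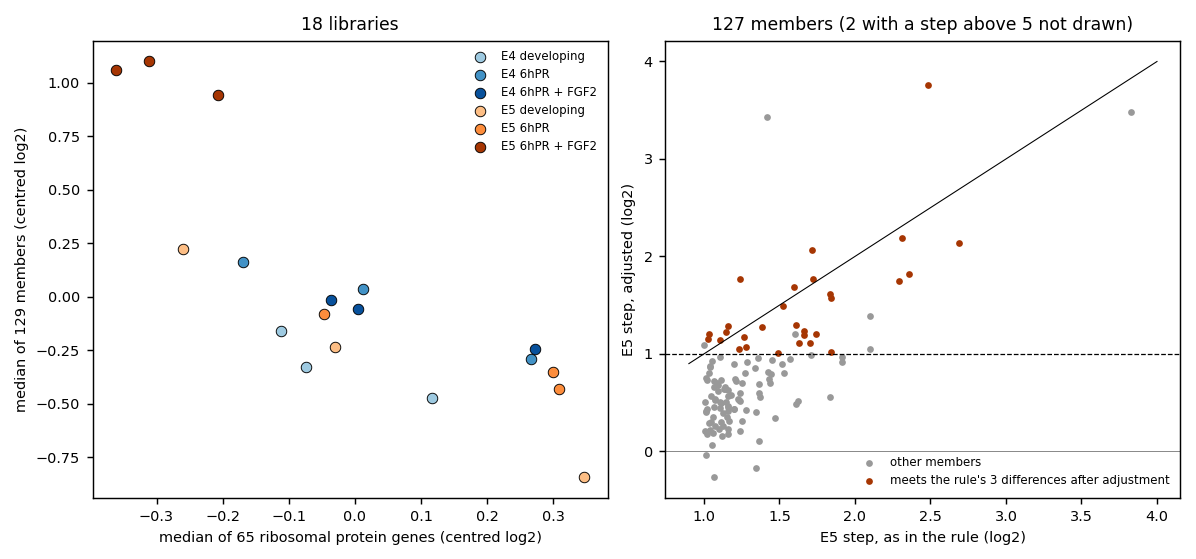
Left, the median of the 129 members (y, centred log2) against the median of 65 ribosomal protein genes (x, centred log2) in the 18 libraries, coloured by group. Right, the E5 step of 127 members after adjustment for the ribosomal protein median (y, log2) against the step of the rule (x, log2), with the line of equality. The treated E5 libraries lie at 0.94 to 1.10 and every other library at 0.22 or lower, and most members lie below the line.

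The 2 largest steps belonged to genes without a symbol that were nearly silent outside E5 6hPR + FGF2. ENSGALG00000046879 was at 461, 351 and 251 normalized counts in E5 6hPR + FGF2, at 0 in the other 6 E5 libraries, and at 5.87 or less in the 9 E4 libraries. ENSGALG00000046632 was at 259, 146 and 67.1 there, again at 0 in the other 6 E5 libraries, and at 9.03 or less at E4. With 3 counts per library as the limit that a count of 0 allows, the first was at least 120-fold and the second at least 53-fold higher than in E5 6hPR, a bound that covers counting error only. Both were lower in replicate 3 than in the others.

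Transcription and chromatin genes gave 14 members, with a median E5 step of 1.35 (1.02 to 2.36) and a median E4 step of −0.06. The strongest was *TP63* (ENSGALG00000007324), a p53-family transcription factor known from stratified epithelia, at 111, 95.4 and 70.2 in E4 developing, 189.7, 99.9 and 116 in E4 6hPR, 179, 172 and 117 in E4 6hPR + FGF2, 142, 67.0 and 52.5 in E5 developing, 103, 57.2 and 110.4 in E5 6hPR and 521, 435 and 434 in the treated E5 libraries. All 3 treated E5 libraries lay above the other 15, and the step was 2.36, or 1.82 with the ribosomal adjustment. *SALL3* (ENSGALG00000041404), a zinc finger factor of the Spalt family, was at 33.2, 38.5 and 20.2 in E4 developing, 39.1, 67.0 and 115 in E4 6hPR, 68.2, 131 and 44.2 in E4 6hPR + FGF2, 33.5, 39.0 and 7.33 in E5 developing, 30.5, 10.1 and 33.3 in E5 6hPR and 96.5, 102 and 169.8 in the treated E5 libraries. Its treated E5 libraries overlapped the E4 libraries of both surgical groups, and the 6 other E5 libraries, at 39.0 or less, lay below every treated one, which gave a step of 2.29. *PCGF5* (ENSGALG00000006502), a subunit of Polycomb repressive complex 1, was at 46.9, 62.1 and 85.5 in E4 developing, 91.3, 50.5 and 97.8 in E4 6hPR, 75.6, 81.4 and 91.7 in E4 6hPR + FGF2, 114, 92.0 and 50.1 in E5 developing, 87.9, 83.0 and 51.4 in E5 6hPR and 288, 286 and 225 in the treated E5 libraries. Its treated E5 libraries, at 225 or more, lay above the highest of the others (114), and the step of 1.84 became 1.02 with the adjustment.

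*HIVEP2* and *HIVEP3* encode large zinc finger proteins that bind κB-like sites. *HIVEP2* (ENSGALG00000013795) was at 553, 821 and 608 in E4 developing, 1042, 946 and 913 in E4 6hPR, 906, 1098 and 1154 in E4 6hPR + FGF2, 1185, 704 and 714 in E5 developing, 888, 747 and 747 in E5 6hPR and 2818, 2665 and 2061 in the treated E5 libraries, with steps of 1.66 at E5 and 0.12 at E4. *HIVEP3* (ENSGALG00000027365) was at 388, 484 and 349 in E4 developing, 936, 652 and 844 in E4 6hPR, 560.4, 692 and 663 in E4 6hPR + FGF2, 507, 353 and 314 in E5 developing, 555, 439 and 341 in E5 6hPR and 1347, 1169 and 1133 in the treated E5 libraries, and its E4 step was −0.34. Both were above the other 15 libraries in each treated E5 library. In the tested comparison of E4 6hPR with E4 developing RPE, *HIVEP3* was called by limma (adjusted p = 0.0051) and *HIVEP2* was not (adjusted p = 0.068). *JUN* (ENSGALG00000010870), a subunit of AP-1, was at 2889.6, 2741 and 2458 in E4 developing, 4623, 5734 and 4602 in E4 6hPR, 6649, 6182 and 4572 in E4 6hPR + FGF2, 2600.1, 4049 and 2346 in E5 developing, 3759.7, 3828 and 5025 in E5 6hPR and 9505, 8605 and 7574 in the treated E5 libraries. It had a small E5 step of 1.03 on a high level, and stood at 1.15 after the ribosomal adjustment. *ARNT2* (ENSGALG00000006445), a partner of bHLH-PAS transcription factors, was at 1659.7, 2404 and 2265 in E4 developing, 2628, 1746 and 2225 in E4 6hPR, 1967, 2000.5 and 2080.0 in E4 6hPR + FGF2, 3567, 2285 and 1436 in E5 developing, 3379, 2456 and 2109.7 in E5 6hPR and 5602, 5571 and 5265 in the treated E5 libraries, and its step of 1.05 became 0.30 after adjustment. Among the rest, *DOT1L*, the histone H3 lysine methyltransferase, and *POU2F1*, *IKZF2* and *ZBTB21*, all DNA-binding factors, lay above the other 15 libraries, whereas *ZIC1*, a zinc finger factor of early neural tissue, overlapped them.

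**Figure D4:**
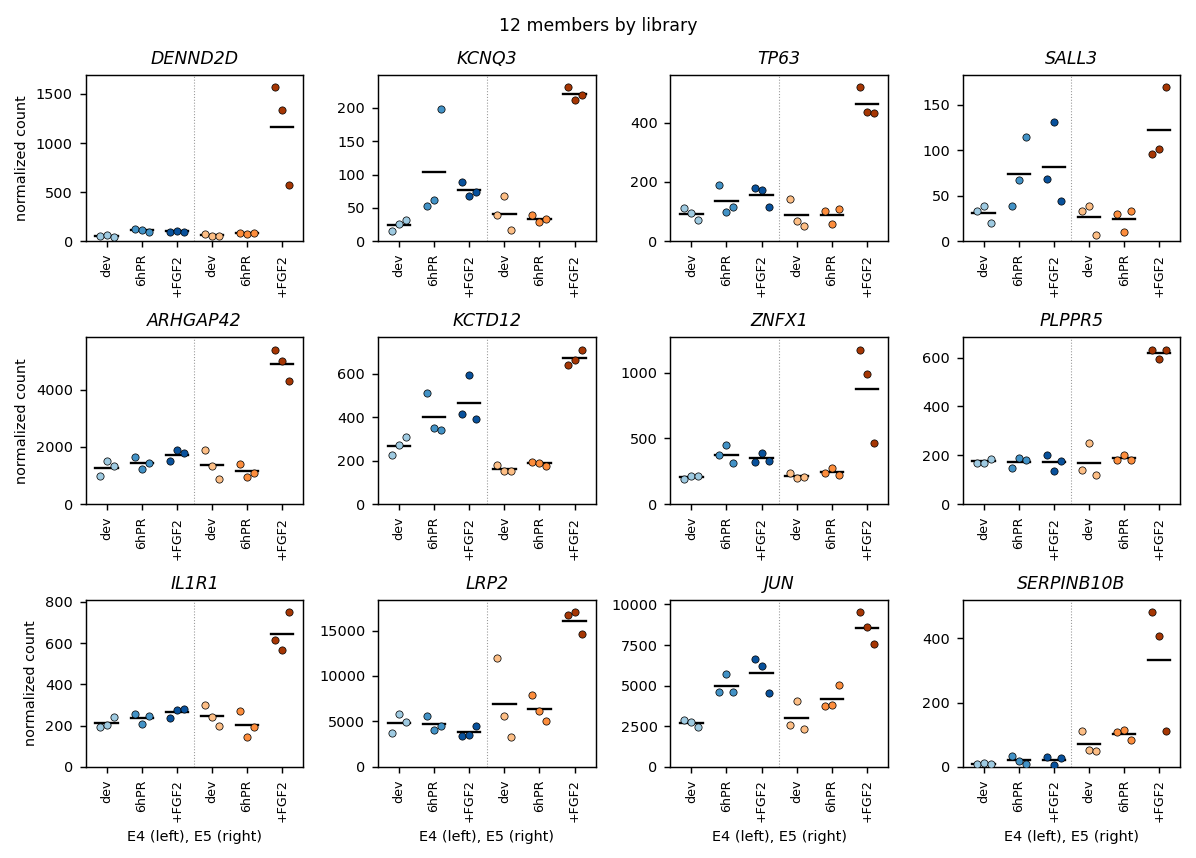
Normalized counts (y, linear, from 0) of 12 members in the 3 libraries of each group (points) with the group mean (bar), E4 on the left and E5 on the right of the dotted line. The treated E5 group has the highest mean in each panel, with replicate 3 far below the others in *DENND2D*, *ZNFX1* and *SERPINB10B* and above them in *SALL3* and *IL1R1*.

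Innate immune and inflammatory genes gave 12 members, with a median E5 step of 1.48 and a median of 1.03 after adjustment, against 0.70 over all members. The adjusted medians of the other role groups with a symbol ran from 0.53 to 0.87. The role groups were drawn up after the members were seen, and these medians are a description only. After adjustment 6 of these 12 members met the rule's 3 differences. The same number, 6, met them among the 14 transcription and chromatin members and among the 13 ion channels and transporters. *ZNFX1* (ENSGALG00000004859), a helicase that takes part in antiviral defence in mammals, was at 188, 211 and 212 in E4 developing, 370.4, 449 and 310.2 in E4 6hPR, 323, 391 and 328 in E4 6hPR + FGF2, 237, 198 and 208 in E5 developing, 239, 276 and 222 in E5 6hPR and 1176, 989 and 468 in the treated E5 libraries. *DHX58* (ENSGALG00000023821), the helicase LGP2 that acts with the RNA sensor MDA5, was at 44.9, 37.6 and 38.7 in E4 developing, 64.2, 102 and 98.8 in E4 6hPR, 78.7, 79.4 and 45.3 in E4 6hPR + FGF2, 56.5, 56.0 and 76.9 in E5 developing, 58.3, 58.4 and 66.6 in E5 6hPR and 235, 229.8 and 140.4 in the treated E5 libraries. In both, replicate 3 of E5 6hPR + FGF2 was the lowest of the 3 yet above the other 15 libraries. *CMPK2* (ENSGALG00000028982), an interferon-induced mitochondrial nucleotide kinase, went from 123, 153 and 114 in E5 6hPR to 555, 455 and 184 in the treated E5 libraries, and *HELZ2* (ENSGALG00000006138), a helicase coactivator, from 731, 619 and 499 to 1779, 1479 and 1498. The E4 steps of these 4 were between −0.38 and −0.08.

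*IL1R1* (ENSGALG00000043044), the signalling receptor of interleukin 1, was at 191, 202 and 239.7 in E4 developing, 255, 206 and 247 in E4 6hPR, 235, 278 and 280.5 in E4 6hPR + FGF2, 301, 243 and 200.3 in E5 developing, 272, 145 and 193 in E5 6hPR and 614, 568 and 749 in the treated E5 libraries. It differed from the antiviral members in having its highest value in replicate 3. Below such receptors, 4 members act in NF-κB signalling. *NFKB2* (ENSGALG00000005653), the p100 subunit of the noncanonical branch, counted above with the transcription genes, was at 1613, 1593 and 1781 in E5 6hPR and 3868, 3377 and 2973 after FGF2, with 2018, 2503 and 1674 and 2470.4, 2837 and 2001 in the corresponding E4 groups. *NFKBIE* (ENSGALG00000044525), an inhibitor of the IκB family, went from 149.7, 197 and 105 to 537, 486 and 345 at E5 and was at 250.0, 302 and 207 and 285, 283 and 275 at E4. *TNFAIP3* (ENSGALG00000013861), the ubiquitin-editing inhibitor A20, was at 531, 500.5 and 422 and 1280.5, 1024 and 667 in the E5 groups and *TRAF3* (ENSGALG00000011389), a ubiquitin ligase that restrains the noncanonical branch, at 172, 149 and 124 and 334, 328 and 303. After adjustment *NFKBIE* (1.68) and *NFKB2* (1.20) stayed above 1, and *TNFAIP3* (0.81) and *TRAF3* (0.73) did not.

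Other members of this group were the membrane-bound chemokine *CX3CL1*, which stood at 788, 629.5 and 665 in E5 6hPR and 2145, 1777 and 1136 after FGF2, the complement protease *C1R* (ENSGALG00000014659) and the endocytic receptor *LY75*. *C1R* was at 1569.8, 1710.0 and 1601 in E4 developing, 1219, 863 and 1092 in E4 6hPR, 871, 929 and 798 in E4 6hPR + FGF2, 1024, 869 and 696 in E5 developing, 978, 967 and 1005 in E5 6hPR and 2137, 1851 and 2003 in the treated E5 libraries, and all 3 E4 developing libraries were above the other E4 libraries. *SERPINB10B* (ENSGALG00000019553), a serpin of the intracellular clade B, was at 9.77, 10.5 and 7.26 in E4 developing, 32.1, 17.6 and 9.46 in E4 6hPR, 31.5, 6.7 and 25.9 in E4 6hPR + FGF2, 113, 53.0 and 50.1 in E5 developing, 108, 113 and 83.7 in E5 6hPR and 481, 409 and 113 in the treated E5 libraries. Its treated replicate 3 lay within the range of E5 6hPR, and replicates 1 and 2 were more than 3 times higher.

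Several antiviral and inflammatory members were lowest in replicate 3 of the treated E5 libraries. The value in replicate 3 was under 0.75 of the mean of replicates 1 and 2 in 25 of the 129 members (19.4%), against 7.12% of genes with a group mean of 100 or more, and the lowest ratios with a symbol were those of *SERPINB10B* (0.254), *CMPK2* (0.365), *DENND2D* (0.396), *ZNFX1* (0.432), *ABCB1* (0.516) and *SLC2A6* (0.537). *TNFAIP3* and *CX3CL1* (both 0.579), *DHX58* (0.604) and *NFKBIE* (0.675) were also low, whereas *HELZ2* (0.92) was at the median of the members (0.92). The same ratio was under 0.75 in 15 of 26 genes of a list of interferon-stimulated and RNA-sensing genes, 12 of them not members, and in 7 of 9 leukocyte markers, none of them members. The summed level of the 9 leukocyte markers was 4427 to 4789 in E4 developing, 5006 to 5821 in E4 6hPR, 4006 to 6826 in E4 6hPR + FGF2, 6466 to 8891 in E5 developing, 10808 to 11627 in E5 6hPR and 9489 to 12912 in the treated E5 libraries. Most of the sum in E5 6hPR was *CSF1R*, a growth factor receptor of macrophages, at 9590, 8703 and 8979 there and 5657, 5473 and 3299 after FGF2. The pan-leukocyte marker *PTPRC* was at 255, 231 and 259 in E5 6hPR and at 369, 395 and 301 after FGF2. *CD74* and *CYBB* had an E5 step of 1 or more. No marker was at 0 in any library. The E5 step was above 0 in 8 of the 9, all but *CSF1R*, so the sum does not follow the other markers. The part of these markers in the values of the members was not tested. The opposite order, with replicate 3 highest, was widest in *ZIC1* (ratio 3.39), *NTN1* (2.52), *SALL3* (1.71) and *NECAB2* (1.57).

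Ion channels and transporters gave 13 members, with a median E5 step of 1.26. *KCNQ3* (ENSGALG00000037626), a pore subunit of the potassium channel that carries the M current, was at 15.6, 25.4 and 31.5 in E4 developing, 53.2, 61.1 and 198 in E4 6hPR, 89.2, 68.0 and 73.4 in E4 6hPR + FGF2, 38.7, 68.0 and 17.1 in E5 developing, 39.2, 29.2 and 33.3 in E5 6hPR and 231, 212 and 219.7 in the treated E5 libraries. Its treated E5 libraries agreed closely and stood above all others, although E4 6hPR replicate 3 came close. *KCNQ5* (ENSGALG00000037249), of the same family, was at 379.5, 289.5 and 279 in E5 6hPR and 755, 747 and 699.7 after FGF2. *CACNA1C* (ENSGALG00000013022), the pore of an L-type calcium channel, was at 167, 199 and 126 in E4 developing, 298, 174 and 239 in E4 6hPR, 209.9, 224 and 277 in E4 6hPR + FGF2, 182, 164 and 104 in E5 developing, 176, 145 and 168 in E5 6hPR and 559, 549 and 534 in the treated E5 libraries, and *CACNA1H* (ENSGALG00000005215), the pore of a T-type channel, went from 328, 265 and 254 to 799.9, 819 and 764 at E5. The steps of *KCNQ3*, *CACNA1C* and *CACNA1H* after adjustment were 2.14, 1.21 and 1.01, and that of *KCNQ5* was 0.72. The group also held the flippase *ATP8A1*, the drug efflux pump *ABCB1*, the glutamate transporter *SLC1A2* and the sodium-calcium exchanger *SLC8A3*.

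Receptors, adhesion and matrix genes gave another 13 members, with a median E5 step of 1.23. *PLPPR5* (ENSGALG00000005470), a membrane protein related to phospholipid phosphatases, was at 169, 168 and 186 in E4 developing, 149, 190.3 and 181 in E4 6hPR, 201, 135 and 176 in E4 6hPR + FGF2, 138, 249 and 118 in E5 developing, 182, 199.7 and 179.9 in E5 6hPR and 632, 592 and 632 in the treated E5 libraries. It stayed between 118 and 249 in the other 15 libraries, and its E5 step was 1.72, or 1.77 with the ribosomal adjustment. *GRM7* (ENSGALG00000037841), a metabotropic glutamate receptor, was at 86.0, 117 and 137 in E4 developing, 132, 82.2 and 134 in E4 6hPR, 124, 172 and 98.2 in E4 6hPR + FGF2, 71.1, 193 and 37.9 in E5 developing, 74.0, 77.4 and 83.7 in E5 6hPR and 273, 256 and 240.0 in the treated E5 libraries, and *CLSTN2* (ENSGALG00000037387), a calsyntenin of the cadherin superfamily, at 311, 397 and 309 in E4 developing, 705, 446 and 598 in E4 6hPR, 534, 458 and 775 in E4 6hPR + FGF2, 1141, 716 and 526 in E5 developing, 1177, 779.9 and 816 in E5 6hPR and 2269, 2244 and 1993 in the treated E5 libraries. *LRP2* (ENSGALG00000010858), the endocytic receptor megalin of absorptive and neural epithelia, had the highest normalized count of the members, at 3737, 5787 and 4984 in E4 developing, 5556, 4059 and 4487 in E4 6hPR, 3384, 3487 and 4461 in E4 6hPR + FGF2, 12028, 5590.4 and 3271 in E5 developing, 7890.1, 6118 and 5017 in E5 6hPR and 16701, 16985 and 14566 in the treated E5 libraries. E5 developing replicate 1 came nearest to the treated libraries, and the step of 1.34 became 0.41 after adjustment. *LOXL2*, which cross-links collagen and elastin, and *NTN1*, the axon guidance ligand netrin 1, had their highest group mean at E4.

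Signalling enzymes, adaptors and GTPase regulators gave 13 members. *DENND2D* (ENSGALG00000000154), an exchange factor for Rab GTPases, had the largest step of any member with a symbol (3.83), at 57.6, 59.5 and 46.8 in E4 developing, 122, 117 and 89.4 in E4 6hPR, 98.6, 101 and 98.2 in E4 6hPR + FGF2, 70.0, 50.01 and 56.2 in E5 developing, 87.0, 70.7 and 86.6 in E5 6hPR and 1572, 1337 and 576 in the treated E5 libraries. Even its lowest treated E5 library was more than 4 times the highest other library. After adjustment its step was 3.48, but the difference between E5 6hPR and developing RPE then exceeded the bound of the rule. *ARHGAP42* (ENSGALG00000017196), a GTPase-activating protein, was at 964, 1517 and 1332 in E4 developing, 1646, 1222 and 1439.6 in E4 6hPR, 1503, 1873 and 1789 in E4 6hPR + FGF2, 1899, 1318 and 882 in E5 developing, 1405, 945 and 1075 in E5 6hPR and 5397, 5012 and 4287 in the treated E5 libraries, with an E5 step of 2.10. *KCTD12* (ENSGALG00000033816), an auxiliary subunit of GABA-B receptors, was at 228, 272 and 307 in E4 developing, 512, 350.1 and 341 in E4 6hPR, 415, 593 and 391 in E4 6hPR + FGF2, 178, 153 and 154 in E5 developing, 195, 189.6 and 177 in E5 6hPR and 642, 663 and 711 in the treated E5 libraries. Its E5 values before FGF2 were below every E4 value, and its treated E5 values were above every other.

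*PAG1* (ENSGALG00000034188), the membrane adaptor that recruits the SRC-inhibiting kinase CSK, was at 725, 904 and 957 in E4 developing, 799, 732 and 644 in E4 6hPR, 871, 801 and 994 in E4 6hPR + FGF2, 2720.3, 1497 and 1148 in E5 developing, 1792, 1432 and 1134 in E5 6hPR and 2966, 2954 and 3242 in the treated E5 libraries, close to the E4 bound of the rule. *PRKCA* (ENSGALG00000025950), protein kinase C alpha, which calcium and diacylglycerol activate, was at 1939, 2029 and 1979 in E4 developing, 2423, 1739 and 2304 in E4 6hPR, 2677, 2045 and 2067 in E4 6hPR + FGF2, 2048, 2054 and 1387 in E5 developing, 2910.1, 2281 and 2049.8 in E5 6hPR and 5620.1, 5102 and 4461 in the treated E5 libraries. The diacylglycerol kinases, which remove that lipid, gave *DGKD* (1017, 832 and 757 in E5 6hPR and 2043, 2063 and 1789 after FGF2) and *DGKQ* (168, 111 and 111 and 292, 289 and 267). Of these, none kept a step of 1 after adjustment: the values were 0.72 for *PRKCA*, 0.57 for *DGKD* and 0.16 for *DGKQ*. *DUSP10*, a phosphatase of JNK and p38, was at 561, 531 and 592 and 1221, 1094 and 1179.8 in these groups and *MAP3K9*, a kinase that activates JNK, at 901, 625 and 438 and 1229.9, 1282 and 1449.

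Cytoskeleton and trafficking genes gave 14 members, with steps between 1.03 and 2.10, and after adjustment none of them met the rule's 3 differences. *MAP1B* (ENSGALG00000014999), a microtubule-binding protein of growing axons, was at 1694, 2416 and 1867 in E4 developing, 4412, 2998 and 4457 in E4 6hPR, 3261, 4304 and 4862 in E4 6hPR + FGF2, 2641, 3197 and 877 in E5 developing, 2780.3, 2060.3 and 1585 in E5 6hPR and 8073, 7628 and 8537 in the treated E5 libraries. *SYNE3* (ENSGALG00000011076), the nuclear envelope protein nesprin 3, was at 93.8, 108 and 67.8 in E4 developing, 181, 102 and 123 in E4 6hPR, 149, 141 and 187 in E4 6hPR + FGF2, 187, 104 and 31.8 in E5 developing, 136, 135 and 125 in E5 6hPR and 622, 538 and 535 in the treated E5 libraries. In both, E5 developing replicate 3 was the lowest of all 18 libraries, and the steps of 1.92 and 2.10 became 0.97 and 1.05. *RIMS4* (ENSGALG00000004146), of the RIM family of presynaptic proteins, was at 41.0, 64.8 and 63.7 in E4 developing, 74.3, 45.8 and 87.3 in E4 6hPR, 80.8, 75.6 and 90.6 in E4 6hPR + FGF2, 73.2, 79.0 and 12.2 in E5 developing, 94.9, 68.5 and 43.8 in E5 6hPR and 234, 266 and 242 in the treated E5 libraries, with a step of 1.83 that became 0.56. *NBEAL1* (ENSGALG00000008786), a BEACH domain protein, was at 2161, 3002 and 2516 in E4 developing, 4188, 3485 and 3550.2 in E4 6hPR, 3943, 3612 and 4887 in E4 6hPR + FGF2, 7894, 4042 and 2588 in E5 developing, 7928, 5943 and 4715 in E5 6hPR and 12171, 13032 and 12848 in the treated E5 libraries, and *TTC28* (ENSGALG00000005676), a protein of tetratricopeptide repeats, at 3620.3, 5084 and 3917 in E4 developing, 5963, 3439.7 and 5296 in E4 6hPR, 3079, 4013 and 3652 in E4 6hPR + FGF2, 5579, 3755 and 2264 in E5 developing, 3911, 2927 and 2567 in E5 6hPR and 6988, 6669 and 7218 in the treated E5 libraries. In these 2 highly expressed genes E5 developing replicate 1 reached the range of E5 6hPR or above. *CLVS2* (ENSGALG00000014853), a lipid-binding protein of endosomes, was at 95.7, 129 and 201 in E4 developing, 280.1, 243 and 231 in E4 6hPR, 136, 173 and 184 in E4 6hPR + FGF2, 128, 137 and 104 in E5 developing, 176, 105 and 85.6 in E5 6hPR and 255, 285 and 309 in the treated E5 libraries, and it was high in E4 6hPR as well.

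Metabolic, redox and glycosylation genes gave 10 members. *B3GNT7* (ENSGALG00000007701), which adds N-acetylglucosamine to keratan sulfate chains, was at 30.3, 54.3 and 56.5 in E4 developing, 80.3, 55.2 and 76.8 in E4 6hPR, 71.4, 71.8 and 66.9 in E4 6hPR + FGF2, 51.2, 45.0 and 39.1 in E5 developing, 30.5, 16.8 and 63.8 in E5 6hPR and 199.5, 179 and 180.0 in the treated E5 libraries. Its treated E5 libraries lay within a narrow band at more than 2 times the highest other value, and it kept a step of 2.19 after adjustment. *NOX4* (ENSGALG00000017235), an NADPH oxidase that makes hydrogen peroxide, was at 265, 338 and 270.3 in E4 developing, 469, 206 and 439.6 in E4 6hPR, 278, 366 and 397 in E4 6hPR + FGF2, 354, 237 and 114 in E5 developing, 196, 148 and 159.9 in E5 6hPR and 628, 609.6 and 666 in the treated E5 libraries, with a step of 1.91 above E5 6hPR, which itself differed from E5 developing RPE by −0.48 on the log2 scale. *PDXK* (ENSGALG00000016205), the kinase that makes the active form of vitamin B6, was at 1380.3, 1649 and 1741 in E4 developing, 2120.1, 1968 and 1886 in E4 6hPR, 2072, 2071 and 1984 in E4 6hPR + FGF2, 2503, 1912 and 1361 in E5 developing, 2769.9, 2076 and 2539.8 in E5 6hPR and 7876, 7726 and 6883 in the treated E5 libraries. The group also held *TXNRD1*, a thioredoxin reductase, and *GLS2*, a glutaminase.

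The last 14 members with a symbol act in RNA handling, protein breakdown or other processes, with a median E5 step of 1.16. *PTBP3* (ENSGALG00000015669), a splicing regulator that binds polypyrimidine tracts, was at 306, 457 and 428 in E4 developing, 552, 384 and 475 in E4 6hPR, 511, 582 and 642 in E4 6hPR + FGF2, 1153, 575 and 504 in E5 developing, 667, 517 and 568 in E5 6hPR and 1513, 1513 and 1486 in the treated E5 libraries. *UTP20* (ENSGALG00000011643), a factor of ribosomal RNA processing, was at 5887, 6671 and 6185 in E4 developing, 5030.2, 4503 and 5266 in E4 6hPR, 5545, 6082 and 6227 in E4 6hPR + FGF2, 4579, 4656 and 3489 in E5 developing, 3361, 2792 and 2949 in E5 6hPR and 5966, 5812 and 6604 in the treated E5 libraries. Its level in E5 6hPR + FGF2 was within the E4 range, and the other 6 E5 libraries were lower, which gave a step of 1.01. Every E5 6hPR library was below every E5 developing one. At E4 as well, every 6hPR + FGF2 library was above every 6hPR one. *NECAB2*, a calcium-binding protein of neurons, met the rule's 3 differences after adjustment.

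To see how the rule's differences behave in libraries it did not use, it was applied without replicate 1, 2 or 3 of every group and the differences were read in the left-out libraries. Without replicate 1 it chose 211 genes, without replicate 2 130 and without replicate 3 101, of which 80, 94 and 72 were among the 129. In the left-out libraries the E5 step was above 0 in 206, 130 and 96 of them and 1 or more in 68, 112 and 69, with medians of 0.79, 1.37 and 1.27. Between the same libraries, the step was above 0 in 50.04%, 49.53% and 49.27% of the genes with a group mean of 100 or more and 1 or more in 5.36%, 7.2% and 7.68%. All 3 differences of the rule were met in 23, 38 and 26 of those chosen and in 0.693%, 1.1% and 2.12% of these genes. The ribosomal protein median of the left-out E5 6hPR + FGF2 library minus that of the left-out E5 6hPR library was −0.26, −0.66 and −0.52. Its part in these steps was not tested.

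Between E4 and E5 in developing RPE, a comparison that the rule does not use although it shares the E5 developing libraries with it, 4 members were higher at E5 and 4 lower by limma, with p-values adjusted over 18287 genes by the Benjamini-Hochberg method and a threshold of 0.05. That is 3.1% of the members in each direction, against 10.8% of all genes higher and 11.1% lower, and 121 members were not called. All genes here include those without a group mean of 100 or more, which the rule left out. The rule also holds the level of developing RPE at E5 near that after retinectomy alone. The low share of members called therefore cannot be told apart from their choice by the rule. The median log2 fold change over the members was 0.06. Among the E5 developing libraries the members had a median SD of 0.58 on the log2 scale, against 0.25 for genes with a group mean of 100 or more. Whether this spread lowered the share called was not tested. *SERPINB10B* was higher by 2.82 (SE 0.62, adjusted p = 0.0041) and *CLSTN2* by 1.16 (SE 0.26, adjusted p = 0.0048), each in 3 of 3 libraries against 3. *PAG1* (0.97, adjusted p = 0.0086) and *PTBP3* (0.83, adjusted p = 0.025) were the other 2. Without E5 developing replicate 1, *PAG1* was at 0.62 (adjusted p = 0.03) and *PTBP3* at 0.46 (adjusted p = 0.1), and *PTBP3* also lost its call without E4 developing replicate 1 (adjusted p = 0.12). *C1R* (−0.93, SE 0.14, adjusted p = 0.00023), *KCTD12* (−0.73, adjusted p = 0.011), *UTP20* (−0.57, adjusted p = 0.0015) and a gene without a symbol were lower. *KCTD12* lost its call without E4 developing replicate 3 (adjusted p = 0.052). With only the groups compared, *CLSTN2*, *PAG1*, *PTBP3*, *KCTD12* and *UTP20* were not called, while *SERPINB10B* and *C1R* kept their call in all 18 alternatives. The count of higher members was 15 without E5 developing replicate 3 and 14 with the ribosomal protein median as a covariate, and that of lower members was 9 without E5 developing replicate 1, 2 without E4 developing replicate 3 and 11 with the covariate.

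Between E4 6hPR and E4 developing RPE, the response to retinectomy at E4, 10 members were higher (7.75%, against 5.68% of all genes) and 2 lower (1.55%, against 7.9%), with a median log2 fold change of 0.33 and 103 members above 0. The rule's bound on the E4 step favours genes that are high in E4 6hPR, so this lean cannot be told apart from the choice of members. All genes again include those without a group mean of 100 or more, which the rule left out. *KCNQ3* was higher by 1.87 (SE 0.49, adjusted p = 0.02), *DHX58* by 1.09 (SE 0.29, adjusted p = 0.021), *DENND2D* by 0.99 (SE 0.30, adjusted p = 0.038), *HIVEP3* by 0.99 (SE 0.21, adjusted p = 0.0051) and *CLVS2* by 0.89 (SE 0.28, adjusted p = 0.046). *JUN* (0.88, adjusted p = 0.0058), *ZNFX1* (0.87, adjusted p = 0.034), *NFKB2* (0.48, adjusted p = 0.041), *CNP* (0.50, adjusted p = 0.037) and a gene without a symbol were the others. *C1R* (−0.63, adjusted p = 0.006) and *UTP20* (−0.34, adjusted p = 0.049) were lower. With the ribosomal protein covariate 36 members were higher. Leaving out replicate 1, 2 or 3 of E4 developing gave 4, 6 and 5, and leaving out replicate 1, 2 or 3 of E4 6hPR gave 7, 5 and 8. Each of the 6 left-out libraries took the count of lower members to 1. *CLVS2*, *DENND2D*, *DHX58* and *KCNQ3* lost their call in 9, 6, 6 and 3 of 18 alternatives, *UTP20* in 11 and *C1R* in 1, whereas *HIVEP3* kept it in all 18. *KCNQ3* was at 1.28 (adjusted p = 0.084) without E4 6hPR replicate 3 and 1.59 (adjusted p = 0.088) without E4 developing replicate 1. *DHX58* was not called without replicate 2 or 3 of either group, *DENND2D* without any single library but E4 6hPR replicate 3, *CLVS2* without any but E4 developing replicate 3, and *UTP20* without any of the 6.

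**Figure D5:**
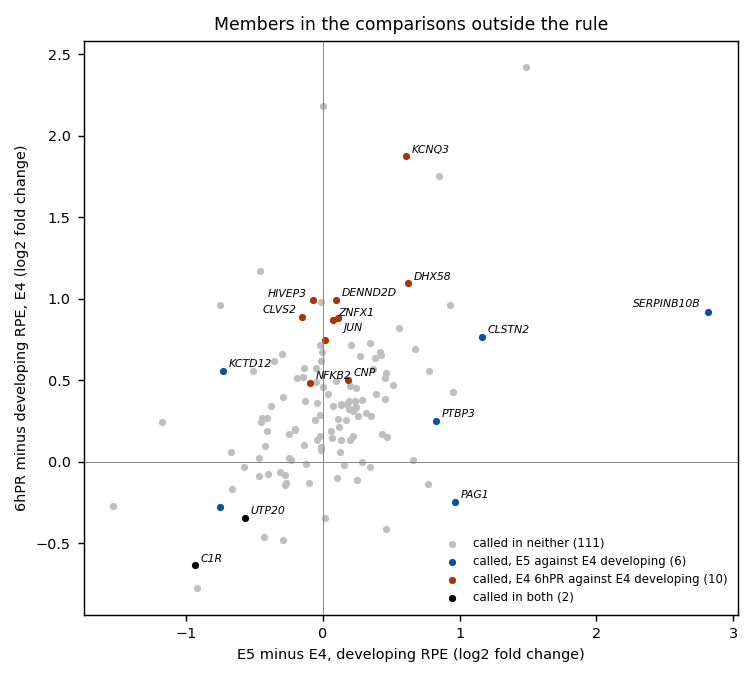
Log2 fold change of the 129 members in E4 6hPR against E4 developing RPE (y) and in E5 against E4 developing RPE (x), with members called by limma coloured and those with a symbol named. Most members (111) were called in neither comparison, and *C1R* and *UTP20* were lower in both.

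Of 23 FGF and ERK feedback and target genes in the table, 7 had an E5 step of 1 or more (*DUSP4*, *DUSP6*, *DUSP7*, *ETV4*, *MYC*, *SPRY1* and *SPRY4*), and all 7 exceeded the bound on the E4 step, so that none of the 23 was a member. *DUSP10*, which is not on this list, was a member. The median step over the 23 was 0.68 at E5 and 0.58 at E4. Lists for lipid transport, lysosomes, the visual cycle, smooth muscle and SRF targets, potassium and chloride channels (without *KCNQ3* and *KCNQ5*) and histones likewise held no member, and a list of growth factors and cytokines held *CX3CL1* only.

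Further lists were drawn up after the members were seen, to set them beside their relatives, and their counts support nothing by themselves. Of 29 genes of NF-κB subunits, inhibitors and regulators, 7 were members (*HIVEP2*, *HIVEP3*, *IL1R1*, *NFKB2*, *NFKBIE*, *TNFAIP3* and *TRAF3*) and the median steps were 0.55 at E5 and 0.08 at E4. The only non-member among them with an E5 step of 1 or more was *IL1RAP*, the partner of *IL1R1*, which exceeded the E4 bound. In the list of interferon-stimulated and RNA-sensing genes the median step over the 26 with a group mean of 100 or more was 1.54 at E5 and 0.07 at E4. Of all 27, 17 had an E5 step of 1 or more. Only 4 of the 17 were members, since 10 of the other 13 had an E4 step over 0.3, 7 differed by over 0.5 between E5 6hPR and developing RPE and 1 had no group mean of 100. *KCNQ3*, *KCNQ5*, *CACNA1C* and *CACNA1H* were the members among 12 KCNQ and voltage-gated calcium channel subunits, where 5 had a step of 1 or more. Among 15 diacylglycerol kinases and protein kinase C genes 3 were members, as were 3 of 17 genes of the JUN and JNK pathway.

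In the gene order of the RefSeq annotation of assembly GRCg7b, where 101 of the 103 symbols were found, 3 pairs of members are next to each other among protein-coding genes: *HIVEP2* and *ADGRG6*, *PCDH19* and *DIAPH2*, and *PLA2R1* and *LY75*. *PLA2R1* and *LY75* encode related receptors of the mannose receptor family. Whether reads were counted by strand is not given in the sources used here, so overlap between such neighbours or antisense transcripts cannot be checked for the 26 members without a symbol.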

How the data were processed

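Poly(A) mRNA of 18 pooled RPE samples was sequenced with a stranded kit. Per the labels and the methods of the study, reads were trimmed (Trim Galore, cutadapt) and mapped to GRCg6a by STAR, and the authors took gene counts from StringTie with the Ensembl annotation and dropped genes with fewer than 10 reads. The deposited signal values are these counts divided by DESeq2 size factors. Tool versions and the strand setting of the counting are not given in the sources used here. Multiplying by a library constant returned whole reads for 100% of values (tolerance 1e-06), 50.7 to 73.0 M per library.

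The main test was limma 3.58.1 with trend (R 4.3.3) on log2(value + 0.5), with 6 group means over all 18 libraries, for 18287 genes with a sum of 10 or more. The recovered reads were also tested with edgeR 4.0.16 and DESeq2 1.42.0, and other scalings, pseudocounts, filters and left-out libraries were tried. A fold change on this scale understates the change of low genes. Separate pools are named by replicate only, so p-values measure the spread between pools, and an exact permutation test of 3 against 3 libraries cannot go below 0.1. The fits were also run on simulated counts with known changes, the same dispersion for every gene and no ribosomal protein axis. How they behave under the unequal spread of these libraries was not tested.

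The members and lists were chosen with earlier results of these data known. The role groups, the NF-κB, interferon, KCNQ, diacylglycerol and JUN lists and the ribosomal protein settings were added after the data were seen. Members named with every library are the 20 with a symbol and the largest E5 step, the 10 with the highest treated E5 mean and up to 5 called per direction in each tested comparison. The other members named with values come from the lists. Genes without a symbol are counted, except the 2 with the largest step and ENSGALG00000043838, chosen after their values were seen. No sequence is shown, and a planned motif search in promoters was not run.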

Additional observations from a re-analysis of the deposited data

How the results depend on the processing

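The rule chose 129 genes. It chose 111 to 140 with other pseudocounts, TMM scaling, other minimum means, integrins kept or means of log2 values, 98 to 211 with libraries left out, and 49 with the ribosomal protein covariate. With that covariate the median E5 step of the original 129 members was 0.70. Of the members, 4 were called higher and 4 lower at E5 than at E4 in developing RPE. The higher count was 14 with the ribosomal protein covariate, 1 with only the groups compared, 8 with DESeq2 and 3 to 15 with a library left out, and the lower count was 7 with quantile normalization, 11 with the covariate, 1 with only the groups compared and 2 to 9 with a library left out. In E4 6hPR against E4 developing RPE, 10 members were higher. That count was 4 with quantile normalization, 36 with the covariate, 6 with only the groups compared, 19 with DESeq2 and 4 to 8 with a library left out. The 2 lower members became 1 with TMM scaling, with quantile normalization, without the trend, with the replicate block and in every fit with a library left out (1 to 1). With only the groups compared the count by limma was 0, with 4 at an unadjusted p under 0.05, and in the fits to all 18 libraries it was 2 by edgeR and 2 by DESeq2.

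Same-numbered libraries did not clearly deviate together in the groups of the tested comparisons. The correlations were −0.21, 0.02 and −0.10 between E4 and E5 developing RPE. They were −0.15, −0.20 and 0.07 between developing RPE and RPE after retinectomy alone at E4. The FGF2-treated groups and E5 RPE after retinectomy alone were not compared in this way. Whether the numbers pair the samples across the series is therefore not known. The replicate block gave 4 higher and 4 lower members in developing RPE and 9 higher and 1 lower at E4. Over all genes the calls in developing RPE were 4015, against 1760 with only the groups compared, and at E4 2483, against 4280 with the covariate and 1554 to 2198 with a library left out. No called direction of a named member reversed, and over the 14 calls and 18 alternatives 44 calls were lost and 208 kept.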
